A study of Mus musculus with 36 samples.

Results

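The 7 mouse miRNAs mmu-miR-149-3p, mmu-miR-1897-3p, mmu-miR-762, mmu-miR-705, mmu-miR-328-5p, mmu-miR-1224-5p and mmu-miR-2861 were followed in plasma, out of 1247 miRNAs on the array. They were chosen by name, because each had a lower scaled level at 12 than at 6 weeks of age, so that age difference is given here as a description with no test. Each passed the filter on low values, which left 234 miRNAs for testing. Their names were put forward as GC-rich miRNAs of low number. All 7 numbers lie below 3000, but the GC description held for 6 of the 7. The brightest probe of miR-1897-3p had 57.1% G and C, and at least 70% of the bases were G or C in the other 6.

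Plasma was taken from female BALB/c mice carrying the MMTV-NeuT transgene (NeuT+) and from non-transgenic siblings (NeuT-), with 1 single-colour Agilent array per mouse and 36 arrays in all. NeuT is an activated rat Erbb2 under a mouse mammary tumour virus promoter, which drives it chiefly in mammary epithelium. Plasma can receive miRNAs from any tissue, and the cells that released those measured here are not known. Of these, 23 are labelled batch 1 and 13 batch 2, and 12-week mice occur only in batch 1. There, the NeuT- mice numbered 4 at 6 weeks, 6 at 12 weeks and 1 at 24 weeks, and the NeuT+ mice 4, 6 and 2. All 23 batch 1 plasmas are labelled as haemolysed. The labels also give mild to moderate dysplasia for 2 of the NeuT- mice of 6 weeks, which were kept in the group of their labelled genotype. Lesion grade and tumour burden entered no fit, so age and any lesions that come with it are not separated in NeuT+ mice.

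MicroRNAs guide Argonaute proteins to messenger RNAs through the seed, the bases near the 5′ end that pair with the target. They leave cells in vesicles, with lipoproteins or bound to protein, and plasma holds a mixture from blood cells, endothelium, liver and other tissues. In plasma, fewer releasing cells and less RNA released per cell cannot be told apart. Agilent miRNA probes pair with the 3′ end of the RNA and are shortened where pairing is strong, so a GC-rich miRNA gets a short probe.

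The mature sequences were compared for common features. They are given 5′ to 3′ from RefSeq on GRCm38.p6, which held 6 of the 7, with the seed (bases 2 to 8) in capitals.
miR-149-3p: gAGGGAGGgacgggggcggugc
miR-762: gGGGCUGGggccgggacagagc
miR-705: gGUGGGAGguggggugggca
miR-1224-5p: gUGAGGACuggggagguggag
miR-2861: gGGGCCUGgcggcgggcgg
miR-1897-3p: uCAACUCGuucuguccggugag
The 6 seeds all differed. The first 5 RNAs began with G and contained the run GGGG, searched on the RNA strand only, and miR-1897-3p did neither. That run was present in 19.7% of the 183 other tested miRNAs found in the table and in 11.2% of all 1679 mature names. G alone made up 59.1% to 70.0% of the bases in those 5 RNAs and 27.3% in miR-1897-3p. The share of G and C together ranged from 54.5% in miR-1897-3p to 94.7% in miR-2861, with a median of 78.4% against 54.5% over the other tested miRNAs in the table. The 7 names were put forward as GC-rich, and the miRNAs set beside them were not matched for GC share. Nothing is therefore read from the higher shares of G, of G and C, or of the run.

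The probes that stood for the miRNAs are shown because their base composition enters the comparison below. Each is the probe with the highest mean signal in batch 1, written 5′ to 3′ as DNA with G and C in capitals.
miR-149-3p: GCaCCGCCCCC
miR-328-5p: CCCtGaGCCCCtC
miR-2861: CCGCCCGCCG
miR-1897-3p: CtCaCCGGaCaGaa
The probe of miR-2861 was 10 bases long and consisted of G and C only, whereas that of miR-1897-3p had 14 bases. In each of the 6 miRNAs with a mature sequence, the whole brightest probe was complementary to the 3′ end of the RNA.

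The loci are scattered over the genome, and the placements are RefSeq's on GRCm38.p6. miR-149-3p lies at chr1:92850421-92850442 on the plus strand, within the bounds of Gpc1, the gene of the cell-surface proteoglycan glypican 1. miR-762 at chr7:127708534-127708555 on the plus strand falls within the bounds of Bcl7c, which encodes a subunit of SWI/SNF chromatin remodelling complexes. miR-705 at chr6:85336341-85336360 on the minus strand lies within Rab11fip5, whose product binds Rab11 on recycling endosomes. miR-1224-5p at chr16:20604452-20604472 on the plus strand lies within Vwa5b2, and miR-1897-3p at chr3:34638511-34638532 on the plus strand within the long non-coding RNA gene Sox2ot. miR-2861 at chr2:32712819-32712837 on the minus strand overlapped no other listed gene, and the hairpin of miR-3960 lies 63 bases away. The gene table gives bounds without exons, so exon or intron was not assigned.

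At 12 weeks the scaled level of all 7 miRNAs was lower than at 6 weeks in both genotypes. The scaled level is the log2 of a miRNA's brightest probe after each array was divided by its 75th percentile over the 85 miRNAs detected on all batch 1 arrays, so 0 is that percentile. The median of the 7 differences was -0.35 in NeuT- mice, where all 234 tested miRNAs had a median of 0.20, and -0.76 in NeuT+ mice, where all tested miRNAs had a median of 0.005. A negative difference was found for 28.2% of the tested miRNAs in NeuT-, for 49.1% in NeuT+ and for 23.5% in both. The 7 were picked for this sign, so nothing is read from their count.

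**Figure D1:**
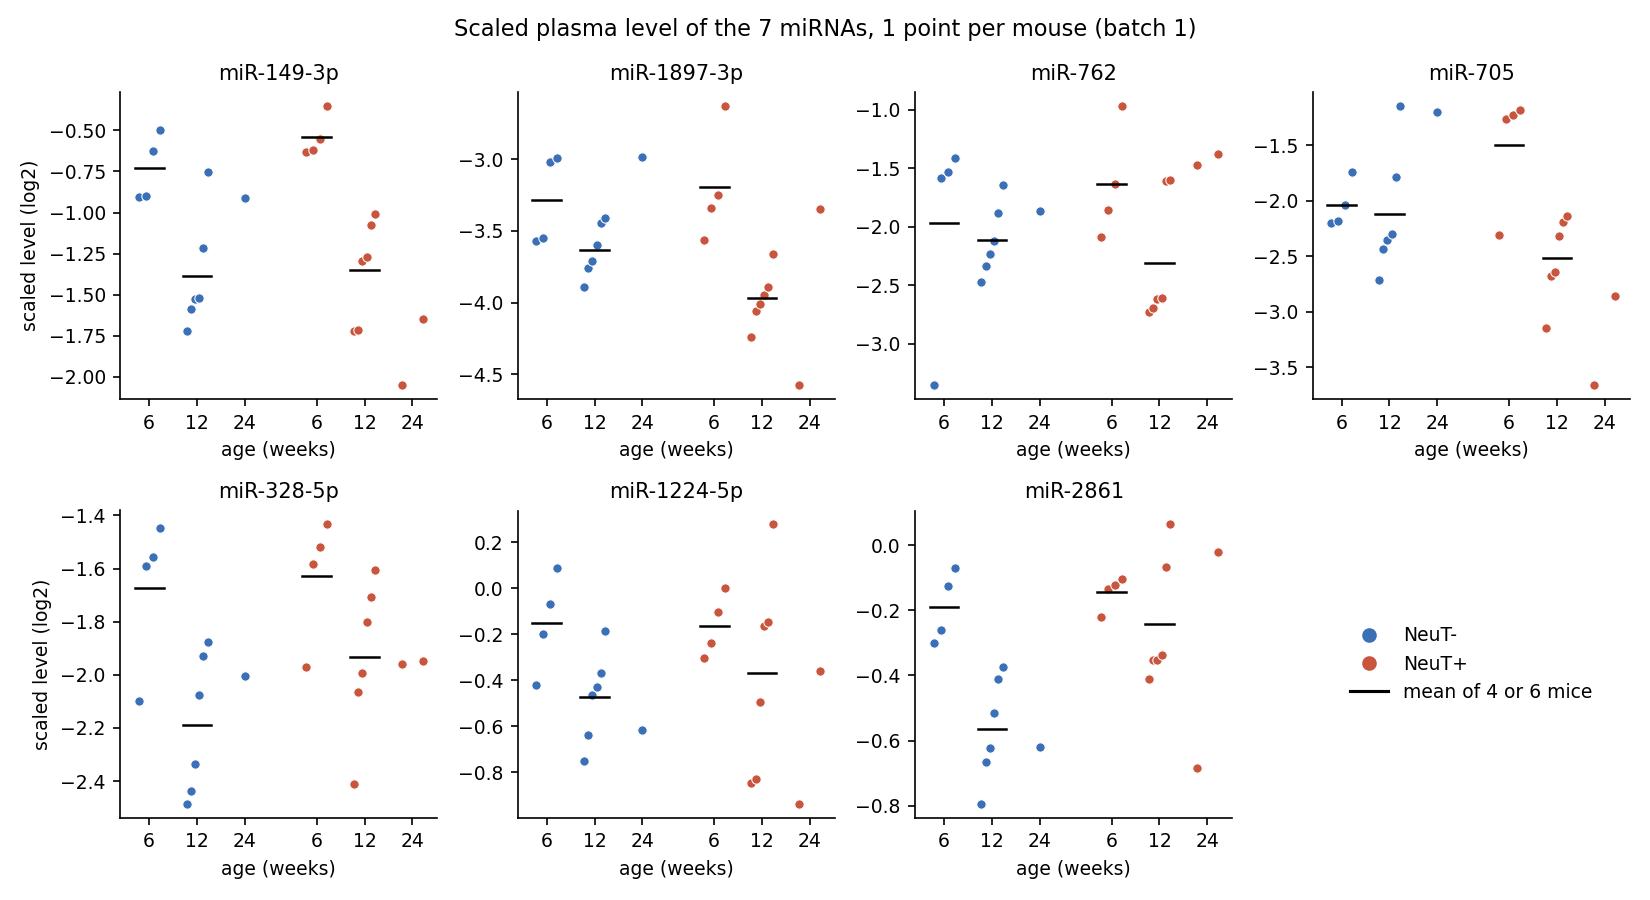
Scaled level (log2, 0 is the array's 75th percentile) of each of the 7 miRNAs in every batch 1 mouse against age in weeks, blue for NeuT- and red for NeuT+, with a black bar at the mean of each group of 4 or 6 mice; each panel has its own y axis. For miR-149-3p the 4 NeuT+ mice of 6 weeks lie between -0.63 and -0.35 and the 6 of 12 weeks between -1.72 and -1.01, whereas for miR-1224-5p the ages overlap in both genotypes.

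mmu-miR-149-3p, the arm of the miR-149 hairpin opposite the better studied 5p arm, had values of -0.90, -0.90, -0.63 and -0.50 in the NeuT- mice of 6 weeks. In the 6 NeuT- mice of 12 weeks it ranged from -1.72 to -0.76 with a median of -1.52. All but 1 of these 6 lay below every 6-week mouse. In the NeuT+ mice of 6 weeks it was -0.63, -0.62, -0.55 and -0.35, and at 12 weeks it ranged from -1.72 to -1.01 with a median of -1.28. The NeuT+ ages did not overlap. The fitted differences, from 6 group means and log2 absorbance at 414 nm in limma, were -0.66 (SE 0.21) in NeuT- and -0.76 (SE 0.22) in NeuT+, or 0.63 and 0.59 times the 6-week level. Before scaling, the scanner's total signal for this miRNA had medians of 407 and 255.5 in NeuT- mice of 6 and 12 weeks and 290.1 and 377.9 in NeuT+ mice, so the NeuT+ order was the opposite on the unscaled intensity.

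mmu-miR-1897-3p, from the Sox2ot locus, was detected on 20 of the 23 batch 1 arrays. Its NeuT- values of 6 weeks were -3.57, -3.55, -3.02 and -2.99, and at 12 weeks the range was -3.89 to -3.41 with a median of -3.65. These ages overlapped, with a difference of -0.35 (SE 0.25), or -0.22 without 12-week replicate 1. In NeuT+ mice of 6 weeks it was -3.56, -3.34, -3.25 and -2.63, and the 12-week range of -4.24 to -3.66, with a median of -3.98, lay entirely below them. The NeuT+ difference was -0.80 (SE 0.26).

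mmu-miR-762 read -3.36, -1.59, -1.53 and -1.41 in NeuT- mice of 6 weeks, and -2.48 to -1.64 with a median of -2.18 at 12 weeks. A single 6-week mouse, replicate 9, lay below all 6 of the 12-week mice, and the other 3 lay above all of them. The fitted difference was -0.13 (SE 0.35) with that mouse and -0.59 without it. Leaving out replicate 5 or replicate 8 of the same group turned the sign, to 0.06 and 0.05, and it was -0.02 without replicate 3. It was -0.21 and -0.08 without replicates 1 and 5 of 12 weeks. In NeuT+ mice it was -2.09, -1.86, -1.63 and -0.97 at 6 weeks and ran from -2.73 to -1.60 with a median of -2.62 at 12 weeks, a difference of -0.76 (SE 0.36) between overlapping groups.

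mmu-miR-705 was -2.20, -2.18, -2.04 and -1.74 in NeuT- mice of 6 weeks and -2.72 to -1.14, median -2.33, at 12 weeks. The 12-week mice spanned more than the whole 6-week range, and the difference of -0.10 (SE 0.30) became 0.01 without 12-week replicate 1 or 6-week replicate 8. It was -0.29 without 12-week replicate 4, and between -0.06 and -0.01 without replicate 2, 3 or 6 of that age. In NeuT+ mice of 6 weeks 3 values lay close together at -1.26, -1.23 and -1.18 and the fourth, in replicate 6, was -2.31. The 12-week NeuT+ mice ranged from -3.15 to -2.13 with a median of -2.48. The NeuT+ difference of -0.92 (SE 0.32) was the most negative of the 14 in this description.

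mmu-miR-328-5p, the arm opposite miR-328-3p, was -2.10, -1.59, -1.56 and -1.45 in NeuT- mice of 6 weeks and -2.49 to -1.88, median -2.21, at 12 weeks. One 6-week mouse lay among the 12-week values. In NeuT+ mice the values of 6 weeks were -1.97, -1.58, -1.52 and -1.43, and those of 12 weeks ran from -2.41 to -1.61 with a median of -1.90. The differences were -0.52 (SE 0.22) in NeuT- and -0.31 (SE 0.23) in NeuT+.

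mmu-miR-1224-5p is cut from a hairpin that forms a short spliced intron of Vwa5b2. It was -0.42, -0.20, -0.07 and 0.09 in NeuT- mice of 6 weeks and -0.75 to -0.19, median -0.45, at 12 weeks. In NeuT+ mice it was -0.30, -0.24, -0.10 and 0.00 at 6 weeks and -0.85 to 0.28, median -0.33, at 12 weeks, so that 3 of the 6 older mice lay below every younger one and the highest lay above all of them. The differences were -0.32 (SE 0.21) in NeuT- and -0.23 (SE 0.22) in NeuT+, where the value was close to its error. The NeuT+ difference became -0.37 without 12-week replicate 2, and -0.15 without 12-week replicate 1 or 6.

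mmu-miR-2861, a miRNA described as acting in osteoblasts, was read at -0.30, -0.26, -0.12 and -0.07 in NeuT- mice of 6 weeks. At 12 weeks these ran from -0.79 to -0.37 with a median of -0.57, with no overlap between ages and a difference of -0.38 (SE 0.16). It was the only one of the 7 whose NeuT- ages did not overlap, where 1.28% of the tested miRNAs had every 12-week mouse below every 6-week mouse. In NeuT+ mice the values were -0.22, -0.13, -0.12 and -0.10 at 6 weeks and -0.41 to 0.06, median -0.35, at 12 weeks, with a difference of -0.06 (SE 0.17). Over the mice left out singly it ran from -0.16 (without NeuT+ replicate 3 of 12 weeks) to -0.03 (without NeuT- replicate 1 of 12 weeks), and it was -0.10 and -0.04 without NeuT+ replicates 1 and 2 of 12 weeks. In NeuT+ the non-overlapping miRNAs among the 7 were miR-149-3p and miR-1897-3p, against 5.13% of those tested. Whether the age difference itself differed between genotypes was not tested for any of the 7.

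Every probe of these miRNAs had the same sign. The 18 probes, 9 to 15 bases long, had differences of the group means from -0.79 to -0.03 in NeuT- and from -1.07 to -0.10 in NeuT+. Probes of a miRNA read the same RNA on the same array and are not replicates. The miRNAs were chosen for a negative age difference of the scaled level, which is read from the brightest probe of each. Nothing is therefore read from the shared sign, and the share of all array probes with that sign is not given here.

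Over all 6 batch 1 groups the mean of the 7 scaled levels was highest in NeuT+ mice of 6 weeks at -1.26 ± 0.19 (SD, n = 4), followed by NeuT- mice of 6 weeks at -1.43 ± 0.20 (SD, n = 4) and the single NeuT- mouse of 24 weeks at -1.46. Below them came NeuT- mice of 12 weeks at -1.78 ± 0.18 (SD, n = 6), NeuT+ mice of 12 weeks at -1.81 ± 0.26 (SD, n = 6) and NeuT+ mice of 24 weeks at -1.92 ± 0.23 (SD, n = 2). Neighbours in this order differed by less than 1 SD except at the step from the single 24-week NeuT- mouse to the NeuT- mice of 12 weeks. The NeuT+ mice of 24 weeks read -2.05 and -1.65 for miR-149-3p and -3.67 and -2.86 for miR-705, and for both miRNAs every NeuT+ mouse of 6 weeks was higher. For miR-762 they read -1.47 and -1.38, within the 6-week range.

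The amount of signal on the arrays also differed by age. The signal summed over all miRNAs had a median of 89316.5 in NeuT- mice of 6 weeks and 137025.5 at 12 weeks, and of 54265.5 and 158639.5 in NeuT+ mice. In NeuT- the ages overlapped, at 23016 to 132576 and 46733 to 210372. In NeuT+ they did not, at 38144 to 79531 and 101665 to 391645. On the log2 scale the 12-week arrays were higher by 0.75 in NeuT- and 1.61 in NeuT+ mice, with absorbance in the fit. Absorbance medians at 6 and 12 weeks were 0.396 and 0.3505 in NeuT- and 0.304 and 0.468 in NeuT+. The part of these differences in the lower scaled levels was not tested.

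Without scaling between arrays the 7 miRNAs were not lower throughout. The median difference was -0.11 in NeuT-, with 5 of 7 negative, and 0.31 in NeuT+, with 0 of 7 negative. These counts are a description, as the share of all tested miRNAs with a negative sign is not given on this scale. All tested miRNAs had unscaled medians of 0.36 and 0.92, so in both genotypes the median of the 7 stayed below that of all tested miRNAs. On this scale 4 values of the 7 lay at the floor, those of miR-762 and miR-1897-3p in NeuT- replicate 9 of 6 weeks and of miR-705 and miR-1897-3p in NeuT+ replicate 4 of 24 weeks. The unscaled errors were wide: for miR-2861 in NeuT+ the difference was 1.01 (SE 0.62), and for miR-149-3p in NeuT- it was -0.39 (SE 0.60). The sign in NeuT+ therefore changed with the scaling. In the deposited log2 table, whose scaling is unknown, the 7 differences ran from -1.17 to 0.20 in NeuT- and from 0.71 to 2.78 in NeuT+.

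**Figure D2:**
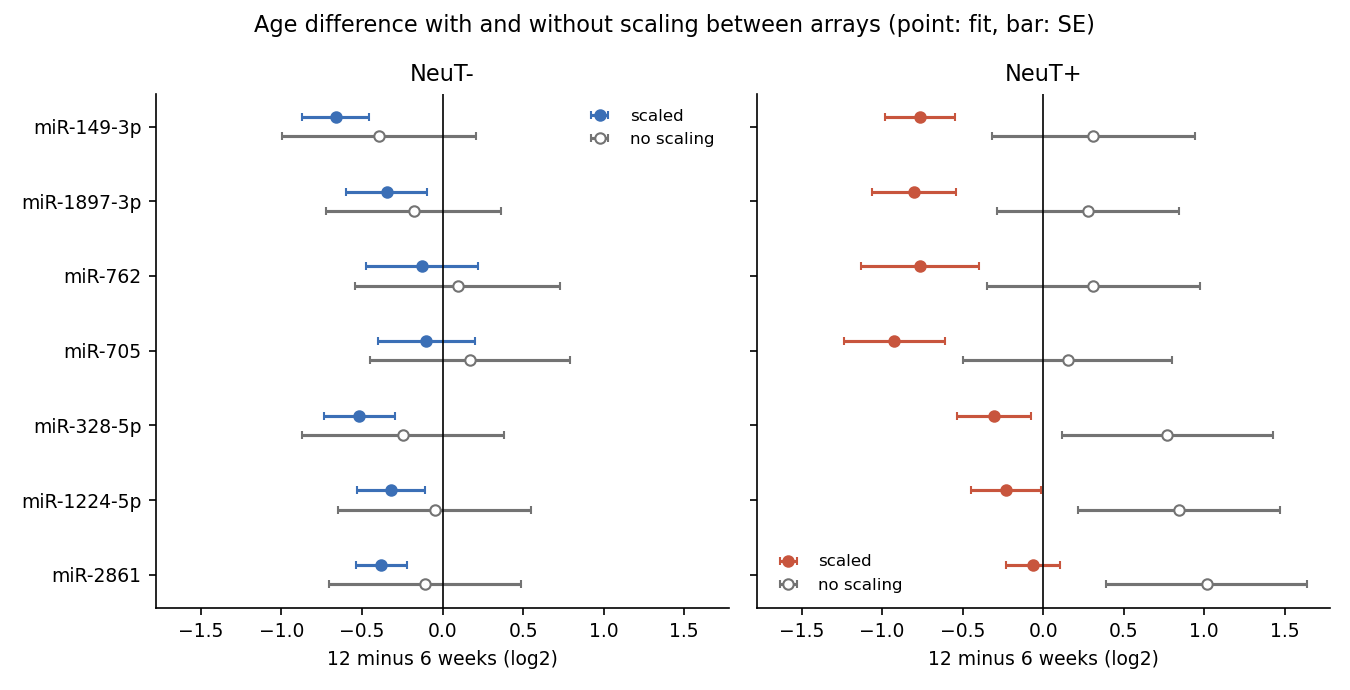
Difference of 12 minus 6 weeks (log2, x axis) for each of the 7 miRNAs, NeuT- on the left and NeuT+ on the right; filled points are scaled levels, open points unscaled levels, and bars are 1 SE of the fit. Scaled points lie below 0 in both panels, and the unscaled NeuT+ points run from 0.15 to 1.01.

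The share of the summed signal held by the 7 miRNAs together needs no percentile. In NeuT- mice of 6 weeks it ranged from 2.86% to 3.14%, and at 12 weeks from 1.00% to 2.36% with a median of 1.55%. In NeuT+ mice it ranged from 2.89% to 3.14% at 6 weeks and from 1.23% to 2.70% at 12 weeks, with a median of 1.98%. The 8 mice of 6 weeks thus lay in a narrow band above all 12 mice of 12 weeks. This share uses the contrast by which the miRNAs were chosen and moves with the rest of the array's signal.

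**Figure D3:**
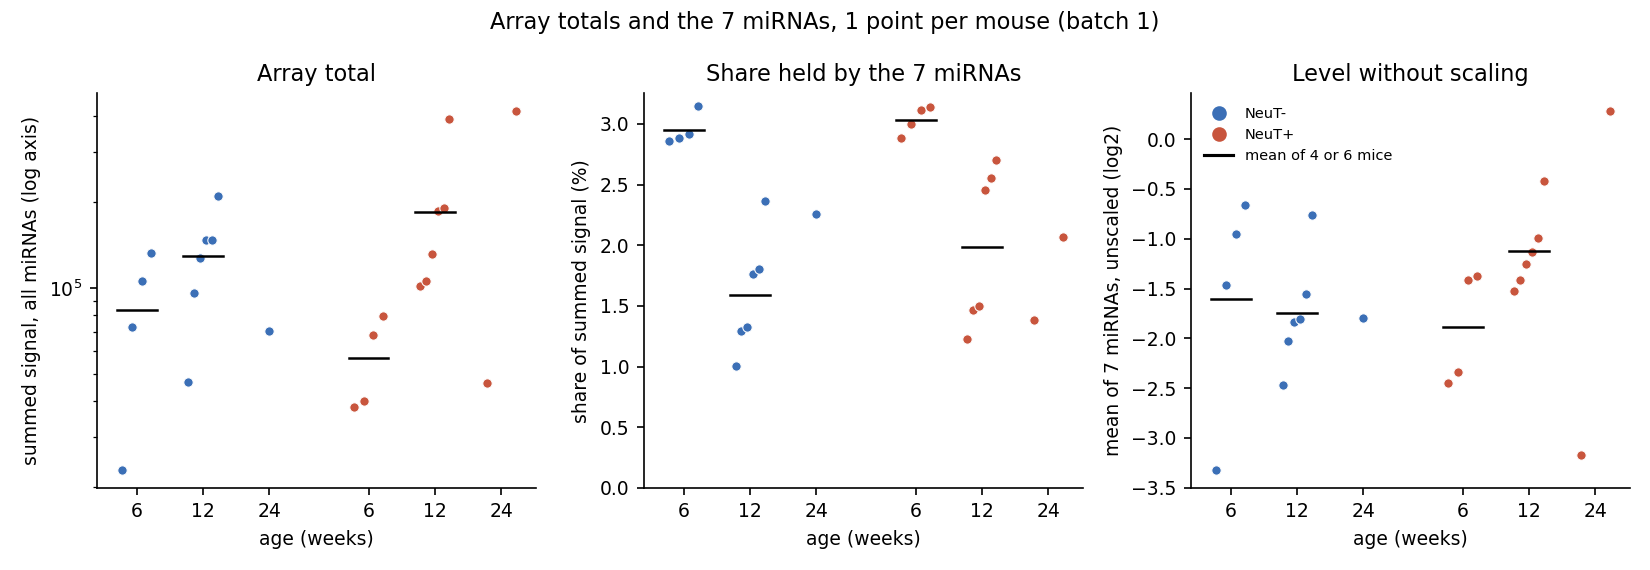
Each point is 1 batch 1 mouse, by age in weeks, blue for NeuT- and red for NeuT+, with a bar at the mean of groups of 4 or 6: the signal summed over all miRNAs (left, log axis), the percentage of it held by the 7 miRNAs (middle), and the mean unscaled log2 level of the 7 (right). The median summed signal is higher at 12 weeks, with overlap between the ages in NeuT-. The share is lower, with every 6-week mouse at or above 2.86%, and the unscaled levels overlap between ages.

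The unscaled level of each of the 7 followed the array's summed signal. With group means and absorbance in the fit, a doubling of the summed signal went with a rise of 0.80 (miR-149-3p, SE 0.12) to 1.01 (miR-762, SE 0.17) on the log2 scale, with a median of 0.88 against 0.77 over all tested miRNAs. This alternative was chosen after seeing the data. In the same unscaled fit the age differences were negative for 7 of 7 in each genotype, where 65.4% and 52.6% of all tested miRNAs were negative, and their medians were -0.77 in NeuT- and -0.72 in NeuT+ against -0.18 and -0.04. With summed signal as a covariate on the scaled levels, the medians were -0.31 in NeuT-, with 7 of 7 negative, and -0.61 in NeuT+, with 6 of 7 negative. All tested miRNAs then had medians of 0.22 and 0.007. Their share with a negative sign is not given for that fit, so the counts of the 7 are a description.

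The scaled age difference also went with base composition across the array. Over the 234 tested miRNAs, the correlation of the difference with the GC share of the brightest probe was r = -0.50 (rho = -0.53) in NeuT- and r = -0.43 (rho = -0.51) in NeuT+. Without the 7 it was -0.48 and -0.42. These are correlations across miRNAs of the same arrays, which are not independent replicates, and are given as descriptions. The least-squares line fell by 0.17 on the log2 scale for each further 10 percentage points of G and C in both genotypes.

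**Figure D4:**
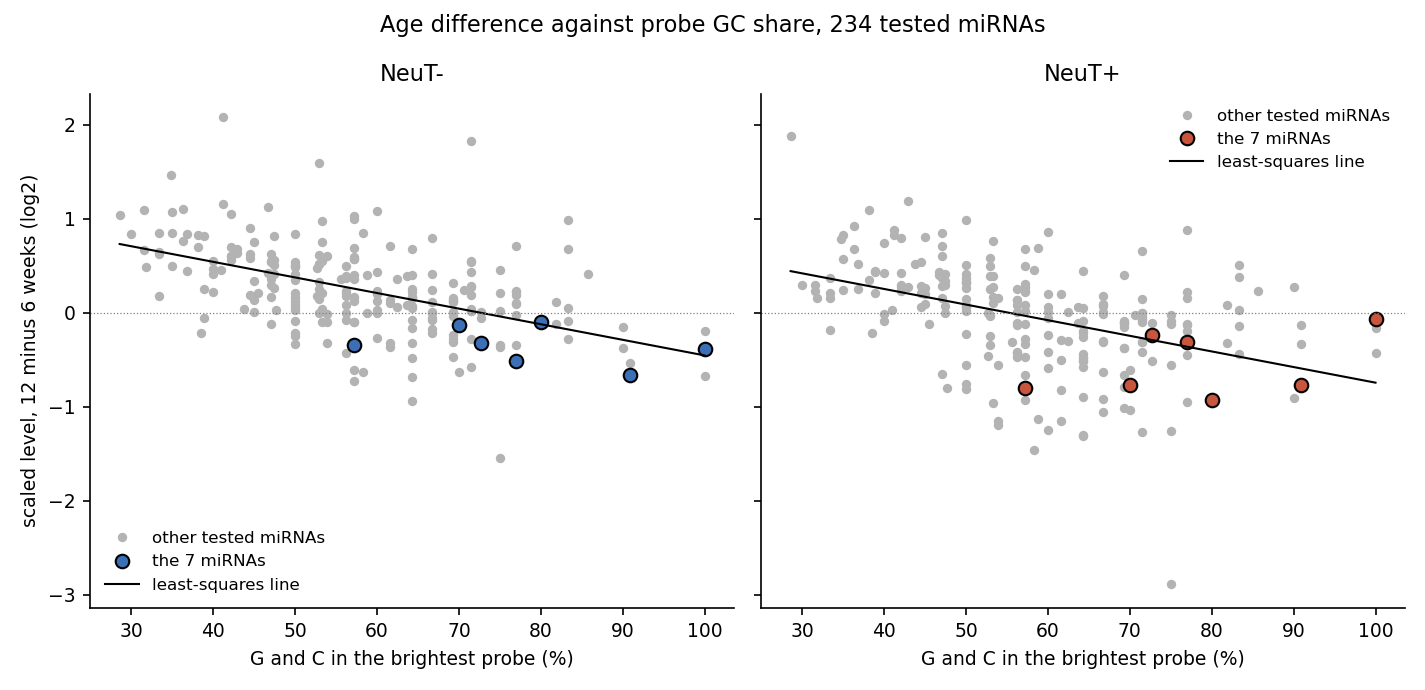
Scaled difference of 12 minus 6 weeks (log2, y axis) against the percentage of G and C in the brightest probe (x axis) for 234 tested miRNAs, grey for the others and coloured for the 7, with the least-squares line over all; NeuT- left, NeuT+ right. Both lines slope down, and 5 of the 7 lie below the line in NeuT- and 4 in NeuT+.

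Individual members stood differently to that line. miR-1897-3p, with a GC share at the median of the tested miRNAs, lay at -0.60 from it in NeuT- and -0.77 in NeuT+. miR-2861, whose probe is all G and C, lay above it by 0.07 and 0.68. miR-149-3p lay at -0.36 and -0.17 from the line, and miR-762 at -0.17 and -0.52. When each array's linear trend with GC share was removed before the fit, the median of the 7 was -0.08 in NeuT- and -0.22 in NeuT+, against 0.24 and 0.01 for all tested miRNAs, and 4 of 7 were negative in each. The share of all tested miRNAs with a negative sign is not given with the trend removed, so that count is a description. On that scale miR-1897-3p kept differences of -0.37 and -0.82, and miR-2861 turned to 0.31 and 0.63.

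Other miRNAs were grouped by the GC share of their probe. The 117 other tested miRNAs with at least the GC share of miR-1897-3p had medians of 0.09 in NeuT- and -0.14 in NeuT+, with 45 and 81 negative. Those numbered under 3000 (66 miRNAs) had medians of 0.07 and -0.14, and those numbered 3000 and over (51 miRNAs) 0.10 and -0.13, so the number in the name made little difference to the median. The 110 miRNAs with a lower GC share had medians of 0.46 and 0.25. With the bar at 70% of G and C, chosen after the values were seen, 45 others remained, with medians of 0.02 and -0.12. The 7 were selected as low and the others were not, so these medians do not set the 7 apart.

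Partners from the same hairpins were mostly undetected. The scanner software detected miR-149-5p and miR-1224-3p on 0 of 23 batch 1 arrays and miR-328-3p on 1, so none of them was tested. miR-1897-5p was detected on all 23 and differed by -0.16 (SE 0.18) in NeuT- and -0.20 (SE 0.19) in NeuT+. miR-3960, the neighbour of miR-2861 and named here after its values were seen, differed by -0.53 (SE 0.17) and -0.34 (SE 0.18).

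The 7 did not move as a tight block. Over the 23 batch 1 arrays the 21 pairwise correlations of scaled levels ranged from -0.16 (miR-2861 with miR-1897-3p) to 0.77 (miR-705 with miR-149-3p), with a median of 0.35. With group means removed the median was 0.23, and on unscaled levels, where all share the array's total, it was 0.86. The tested miRNAs outside the set with the highest correlation to the mean of the 7, each centred on its own mean, over 23 arrays were miR-365-1-5p (r = 0.90), miR-5126 (r = 0.80), miR-292-5p (r = 0.79), miR-290-5p (r = 0.78) and miR-3081-5p (r = 0.77). All points share the arrays and their scaling. The scanner software detected miR-365-1-5p on 17 of the 23 arrays, miR-292-5p on 20 and the rest of these miRNAs on all 23. The first of them contained the run GGGG, as did miR-5126, whose RNA is all G and C. The run was absent from miR-3081-5p, and miR-292-5p and miR-290-5p were not among the RefSeq mature names. Those with the run were:
miR-365-1-5p: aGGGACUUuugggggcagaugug
miR-5126: gCGGGCGGggccgggggcgggg
Both had negative age differences in both genotypes, of -0.32 (SE 0.21) and -0.57 (SE 0.22) for miR-365-1-5p and -0.67 (SE 0.19) and -0.43 (SE 0.20) for miR-5126. The sign was the same without regard to the run. miR-3081-5p, which lacks it, was at -0.28 (SE 0.23) in NeuT- and -1.01 (SE 0.24) in NeuT+. miR-292-5p was at -0.61 (SE 0.32) and -0.66 (SE 0.33), and miR-290-5p at -0.32 (SE 0.32) and -0.55 (SE 0.33). Over all tested miRNAs, 23.5% were negative in both genotypes. They were picked by likeness to the mean of miRNAs chosen as lower at 12 weeks, so nothing is read from their signs.

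Genotype was not used to choose the 7 and was tested with limma, Benjamini-Hochberg adjusted over 234 miRNAs. At 6 weeks no miRNA was called (0% of those tested, and 0 at an unadjusted p under 0.05). The 7 differed between NeuT+ and NeuT- by 0.002 (miR-1224-5p) to 0.49 (miR-705, 95% interval -0.21 to 1.18), each with an adjusted p of 1 in limma. At 12 weeks again 0% were called, with 19 miRNAs (8.12%) at an unadjusted p under 0.05. One of the 7 was among these: miR-2861 was higher in NeuT+ mice by 0.34 (SE 0.15, 95% interval 0.04 to 0.64), with an adjusted p of 0.408 in limma. The values of miR-2861 overlapped, since NeuT+ mice spanned -0.41 to 0.06 and NeuT- mice -0.79 to -0.37. miR-1897-3p was at -0.35 (95% interval -0.82 to 0.12) and miR-328-5p at 0.26 (95% interval -0.16 to 0.68), with adjusted p of 0.435 and 0.524 in limma.

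Absorbance at 414 nm, the haemoglobin band, served as the read-out of haemolysis. Within the batch 1 groups, a doubling of absorbance went with changes of -0.25 (miR-705, 95% interval -0.71 to 0.22) to 0.22 (miR-762, 95% interval -0.31 to 0.75) in the scaled level of the 7. None of the 234 miRNAs was called by limma (0%), and 5 (2.14%) had an unadjusted p under 0.05, none of them among the 7, whose adjusted p ranged from 0.954 to 0.99. The erythrocyte miRNA miR-451a, the main red cell marker, was itself higher at 12 weeks by 1.10 (SE 0.51) in NeuT- and 0.67 (SE 0.53) in NeuT+, and the 7 tested erythrocyte markers had medians of 0.60 and 0.06, with 0 and 3 negative. Myeloid markers (3 tested) were at medians of 0.68 and 0.79, with miR-223-3p, a granulocyte miRNA, at 0.68 (SE 0.43) and 1.18 (SE 0.45), and epithelial markers (4 tested) at 0.21 and 0.39. The other lists had medians of 0.14 and 0.09 for platelet and endothelium (3 tested), 0.21 and 0.17 for liver (2 tested), and 0.17 and 0.32 for miR-150-5p, the only tested lymphoid marker. Of the muscle list miR-1a-3p was tested, at 1.03 (SE 0.91) and 1.88 (SE 0.95). For comparison, all tested miRNAs had medians of 0.20 and 0.005, and the 110 with a GC share below that of miR-1897-3p had 0.46 and 0.25. With the GC trend removed, the medians were 0.39 and -0.17 for erythrocyte, 0.42 and 0.40 for myeloid and 0.04 and 0.26 for epithelial markers. All tested miRNAs were then at 0.24 and 0.01. The part of blood cell miRNAs in the lower share of the 7 was not tested.

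The file headers give the slide and the day of the scan, and some hold both ages of a genotype; these comparisons were added after the data had been seen. The mean of the 7 at 12 minus 6 weeks within scan days was -0.43 and -0.29 in NeuT- and -0.89, -0.33 and -0.56 in NeuT+. Within slides, with 1 mouse of each age, it ranged from -0.67 to -0.21 over 5 pairs. The summed signal of the 12-week array in these pairs differed from that of the 6-week array by -0.47 to 2.67 on the log2 scale. The 7 were chosen as lower at 12 weeks on these same arrays, and the scan days and slides share mice, so nothing is read from the sign.

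Batch 2 could not extend the age comparison. Its 13 arrays detected a median of 24 miRNAs against 234 in batch 1. Of the 7, miR-149-3p, miR-1224-5p and miR-2861 were each detected on 7 of 13 arrays, miR-705 and miR-328-5p on 1, and miR-762 and miR-1897-3p on 0. Levels of the 2 batches are not compared here, and a fit of all 36 arrays with batch as a term was run as an alternative only.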

How the data were processed

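Plasma miRNA of 36 female mice was measured on Agilent arrays. Per the file headers, Agilent Feature Extraction 10.7.3.1 read the scans (array design on mm9), and the deposited intensity values are linear and already background-subtracted. The making of the deposited log2 table is not given in sources used here. Column medians of that table lay between 2.98 and 4.78, its scaling and centring are unknown, and it served as an alternative only.

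Control and outlier-flagged spots were left out and spots of a probe averaged. The probe with the highest batch 1 mean stood for each of 1247 miRNAs. For scaling, the 85 miRNAs found on all 23 batch 1 arrays, 6 of the 7 among them, gave a 75th percentile per array, by which its signals were divided. Values were then floored at 0.037 and logged. The summed signal of these arrays ran from 23016 to 414773, and 13.1% of tested values lay at the floor, none of them a scaled value of the 7 miRNAs. Tested were the 234 miRNAs detected on at least 75% of the arrays of a group. They were fitted with limma 3.58.1 in R 4.3.3 on 6 group means and log2 absorbance (16 residual degrees of freedom; trended, robust), with Benjamini-Hochberg adjusted p under 0.05 as the threshold. The number of arrays limits the precision. No 2 arrays were identical.

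The miRNAs and lists were chosen with earlier results of these data known. Named were the 7, their opposite arms, the 5 miRNAs most correlated with their mean, and up to 2 per marker list. Sequences came from RefSeq tables (GRCm38.p6) and the probe column. The code was tested on simulated data. Alternatives changed the scaling, floor, filter, probe summary, background, GC trend, covariates, blocks, weights and arrays used.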

Additional observations from a re-analysis of the deposited data

Results flagged for a closer look

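In 2 of the 28 groups of 4 or 6 mice (7 miRNAs in 4 groups), 1 mouse lay far from the others by Dixon's criterion, and chance alone marks about 1 in 20 such groups. miR-762 was at -3.36 in NeuT- replicate 9 of 6 weeks, where the nearest of the other 3 mice was at -1.59. miR-705 was at -2.31 in NeuT+ replicate 6 of 6 weeks, where the nearest was at -1.26. In both cases the mouse was the lowest of the younger group.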

How the results depend on the processing

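The median age difference of the 7 miRNAs was recomputed under 43 alternatives per genotype. It was negative under all 43 in NeuT- mice and under 41 in NeuT+ mice, and lay below the median of all tested miRNAs under 43 and 42. Every one of the miRNAs was negative under 34 of the 43 in NeuT- and 38 in NeuT+. Of the 43 alternatives, 20 left out a single mouse. The 7 were chosen on this contrast, so these counts are a description. In NeuT- (-0.35) it moved to -0.61 with the percentile over all probes, -0.11 without scaling, -0.88 with scaling by the summed signal, -0.081 with the GC trend removed and -0.77 without scaling but with summed signal as a covariate. In NeuT+ (-0.76) it moved to -0.49 with the percentile over all probes, 0.31 without scaling, -0.46 with the scanner's total signal per miRNA, -0.48 with the mean over probes, -0.31 with a floor 4 times higher, -0.53 with only miRNAs detected on all arrays (6 of the 7), -0.22 with the GC trend removed and -0.50 with slide as a fixed block. In the deposited log2 table it was 1.87 in NeuT+, against 1.24 for all tested miRNAs, and -0.41 in NeuT-. The cause was not tested. Leaving out each of the 20 mice gave -0.44 to -0.33 in NeuT- and -0.83 to -0.54 in NeuT+.

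Called genotype differences numbered 0, and 0 without each of those 20 mice in turn. With array weights, whose estimate stopped before converging, they were 12 of the 234 tested miRNAs at 6 weeks and 65 of the 234 at 12 weeks. Among the 12 was miR-705 (0.70, limma adjusted p = 0.026). Among the 65 were miR-1897-3p (-0.59, limma adjusted p = 0.0401) and miR-2861 (0.50, limma adjusted p = 0.00835). With so many miRNAs called at 12 weeks, nothing is read from the calls among the 7. With the scanner's total signal per miRNA 1 was called at 12 weeks. The absorbance slope had 0 calls, and 0 without each of those 20 (the 24-week mice were not left out singly), but 1 with scaling by the summed signal, 7 with array weights, 1 with only the 6- and 12-week arrays, 8 with all 36 arrays and 1 without scaling but with summed signal as a covariate. No paired analysis was possible because replicate numbers follow the order of the samples and no label gives them. Between 1.88% and 6.97% of spots were left out per array, and the smallest age differences (miR-762 and miR-705 in NeuT-, miR-2861 in NeuT+) were smaller than their error.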
